A study of Arabidopsis thaliana with 16 samples.

Results

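The nup136 single mutant of Arabidopsis thaliana was compared with wild type of the Col-0 accession (WT), in seedlings that carried no other labelled mutation. There were 2 libraries of nup136 and 2 of WT, chosen by their genotype labels, out of 16 libraries in the series. All were strand-specific mRNA-seq libraries of whole seedlings 9 days old, grown on 1/2 MS medium with 1% sucrose without any treatment, with about 50 mg of tissue per extraction. The other 12 libraries came from 2 single mutants, nup50c and nup82, from the double mutants nup50c nup82, nup50c nup136 and nup82 nup136, and from the triple mutant nup50c nup82 nup136, with 2 libraries each, and are used below where they show how nup136 stood against the other single mutants or what the nup136 mutation did in another genotype. The labels name neither the allele nor the site of the mutation, and they do not say whether paired libraries were grown apart, so p-values measure the spread between these libraries only.

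The nuclear basket is a set of filaments on the nuclear side of the nuclear pore, the channel through which RNA and protein pass between nucleus and cytoplasm. NUP136, also called NUP1, is a plant nucleoporin of the basket with the repeats that transport receptors bind; NUP82 is its shorter relative, NUP50 proteins bind importins there, and NUA is the plant homologue of the basket protein Tpr. In Arabidopsis the basket has been studied for mRNA export, nuclear shape, and defence, which is why transport, export and defence genes are described here beside the pathways of a seedling's metabolism and growth.

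Gene counts summed to 42575538 and 37923632 in the nup136 libraries and to 45100843 and 38045728 in the WT libraries, within the range of 37923632 to 46194172 over the series. Levels are CPM, counts relative to the library's total, after TMM scaling, and the test was edgeR's quasi-likelihood test with Benjamini-Hochberg adjustment over 22427 genes; a gene was called at an adjusted p under 0.05. In a principal component analysis of the 8 libraries of WT and the 3 single mutants, the component with 29.6% of the variance set the nup136 libraries, at 51.01 and 64.97, apart from the other 6, which lay between -25.16 and -13.55. The next, with 16.2%, held the WT libraries at 20.34 and 53.05 and the nup50c and nup82 libraries between -30.44 and -14.46, so WT also stood apart from the other 2 single mutants. Markers of pollen and seed were low: 3 of 4 pollen markers and 3 of 11 seed storage and oil body markers had no count in the 4 libraries. The summed level of the seed list was 2.16 and 1.69 CPM in nup136, against 1.36 and 3.83 CPM in WT. All 4 flower markers had counts, with a summed level of 12.3 and 10.8 CPM in nup136 and 10.2 and 10.8 CPM in WT. None of them was called. In whole seedlings, fewer cells of a type and less RNA per cell cannot be told apart.

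NUP136 (AT3G10650, chr3:3325074-3331282, minus strand, TAIR10) was at 21.8 and 19.6 CPM in nup136, against 49.1 and 46.8 CPM in WT. Both mutant libraries lay below both WT libraries, with a log2 fold change of -1.21 (SE 0.13, adjusted p = 3.58e-07, edgeR). The transcript was thus reduced and not absent, which is a count over the whole gene and says nothing of the protein. Of the 6 basket genes tested, NUA was also called lower, at 72.7 and 67.1 CPM in nup136 and 82.9 and 83.0 CPM in WT (log2 fold change -0.25, SE 0.08, adjusted p = 0.0475, edgeR), a call that was lost without nup136 2, WT 1 or WT 2 (adjusted p from 0.167 to 0.301). NUP82 was at 33.7 and 29.7 CPM in nup136 and at 29.5 and 35.0 CPM in WT, and NUP50C at 42.1 and 44.5 CPM in nup136 and at 40.6 and 43.3 CPM in WT; their groups overlapped and neither was called. NUP50A and NUP50B were not called either (adjusted p = 0.0878 and 0.539). Among 32 genes of the pore scaffold, channel and lamina, NUP98B was the only call, at 22.7 and 17 CPM in nup136 and 10.7 and 9.57 CPM in WT (log2 fold change 0.99, SE 0.14, adjusted p = 1.41e-05, edgeR). NUP98B is a channel nucleoporin that, like NUP136, carries repeats bound by transport receptors.

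Across all genes 1471 were higher in nup136, which is 6.56% of those tested, and 1757 were lower, which is 7.83%. Most changes were small: 83.9% of the called genes differed by less than 1 on the log2 scale, the median was 0.55 for the higher and -0.45 for the lower genes, and the median over all tested genes was 0.0046. A log2 fold change of at least 1 was reached by 333 higher and 188 lower genes. Scaling by library totals in place of TMM moved the split to 1833 higher and 1398 lower. Leaving out nup136 1 gave 1253 higher and 1564 lower, and leaving out nup136 2, WT 1 or WT 2 gave 774 to 807 higher and 1004 to 1068 lower, each of these fits resting on a lone library in 1 genotype that is assumed to vary like the rest.

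**Figure D1:**
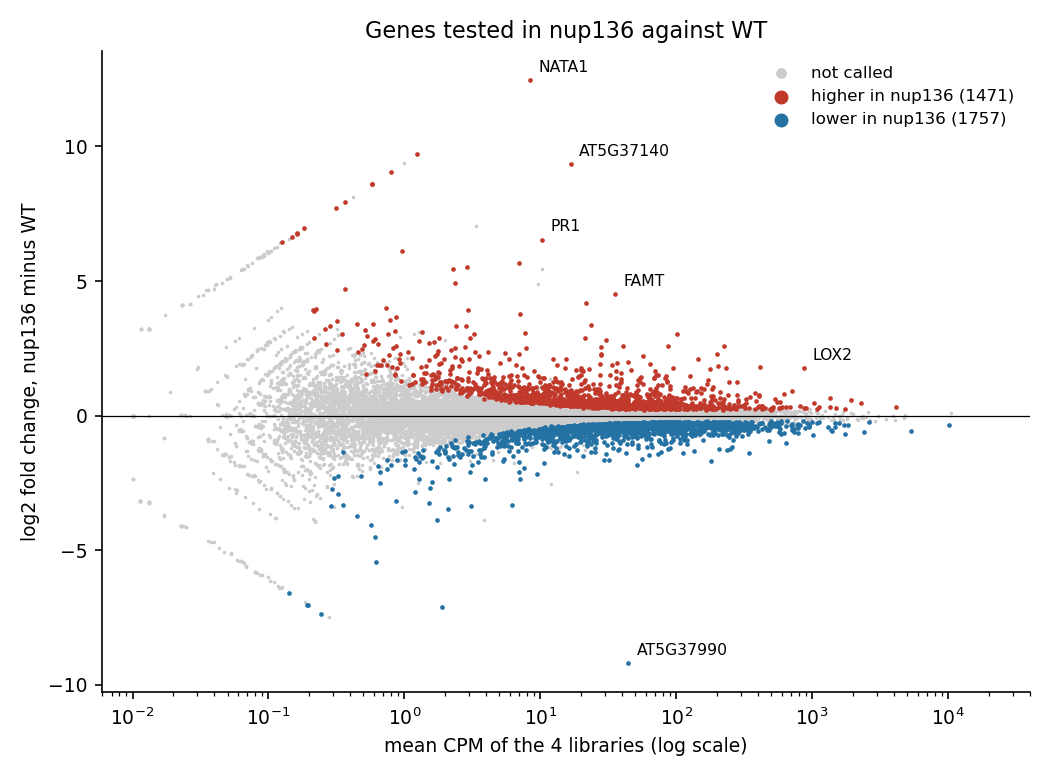
Log2 fold change of nup136 over WT (vertical axis) against the mean CPM of the 4 libraries (horizontal axis, log scale), 1 point per tested gene. Red points are the 1471 genes called higher and blue points the 1757 called lower in nup136; AT5G37140 and AT5G37990 lie far above and far below genes of a like level.

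Among genes with any count in WT, the largest fitted rise was that of AT5G37140 (chr5:14690436-14692851, plus strand), annotated as a P-loop nucleoside triphosphate hydrolase. It was at 32.9 and 34.2 CPM in nup136 and at 0 and 0.106 CPM in WT (log2 fold change 9.33, SE 0.38, adjusted p = 4.81e-13, edgeR). The largest fall was that of AT5G37990 (chr5:15133867-15135169, minus strand), annotated as an S-adenosyl-L-methionine-dependent methyltransferase, with 0.184 and 0.105 CPM in nup136 and 91.8 and 85.1 CPM in WT (log2 fold change -9.2, SE 0.4, adjusted p = 1.4e-07, edgeR). Both genes lie on chromosome 5, and in both the libraries of the 2 genotypes were far apart.

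In the 6 other genotypes AT5G37140 was higher and AT5G37990 lower wherever nup136 was mutated. AT5G37140 was at 14.5 and 16.9 CPM in nup50c nup136, 4.75 and 4.69 CPM in nup82 nup136 and 24.5 and 23.9 CPM in the triple mutant, and between 0 and 0.0958 CPM in the 6 libraries of nup50c, nup82 and nup50c nup82. AT5G37990 was at 5.00 and 2.65 CPM in nup50c nup136, 23.4 and 31.8 CPM in nup82 nup136 and 5.50 and 7.60 CPM in the triple mutant, and between 69.9 and 90.9 CPM in the 6 libraries of nup50c, nup82 and nup50c nup82. Its fall was smaller in nup50c and in nup82 by a test of the difference: the effect of nup136 in nup50c minus that in WT was 4.66 (SE 0.6, adjusted p = 0.00111) and that in nup82 minus that in WT was 7.49 (SE 0.5, adjusted p = 6.74e-06, edgeR). For AT5G37140 these differences, 3.03 in nup50c and -2.8 in nup82, were not called (SE 1.93 and 1.26; adjusted p = 0.485 and 0.19), and no such test was made for the triple mutant's pair. NUP136 itself showed a smaller fall in nup82, at 33.9 and 23.4 CPM in nup82 nup136 and 42.0 and 42.6 CPM in nup82, with an effect that differed from that in WT by 0.65 (SE 0.17, adjusted p = 0.02, edgeR).

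**Figure D2:**
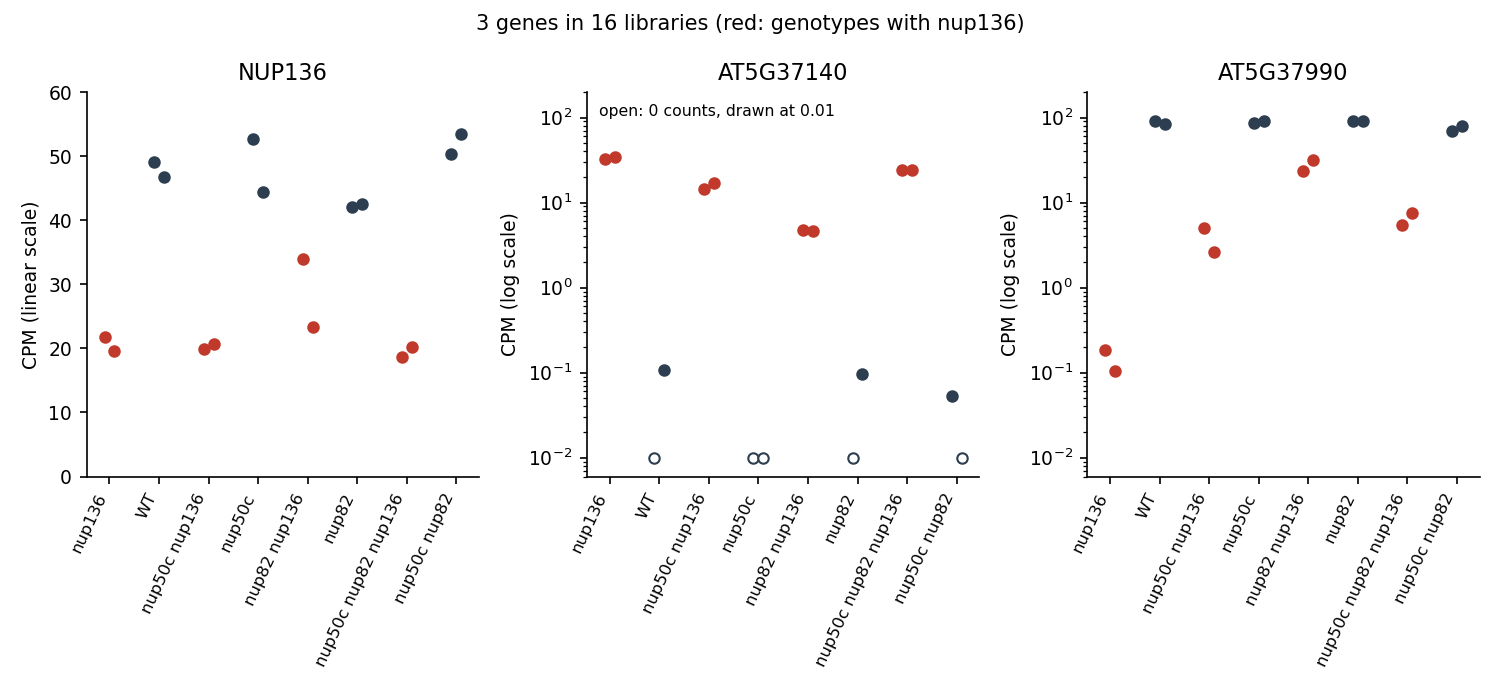
CPM of NUP136 (linear axis), AT5G37140 and AT5G37990 (log axes) in all 16 libraries, 1 point per library, each genotype with nup136 (red) left of its counterpart without it (dark). NUP136 was between 18.6 and 33.9 CPM in every library with the mutation and at 42.0 CPM or more in every library without it; open points are libraries with 0 counts.

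FAMT, a farnesoic acid methyltransferase, was at 60.8 and 74.6 CPM in nup136 and at 4.36 and 1.41 CPM in WT (log2 fold change 4.52, SE 0.53, adjusted p = 0.000688, edgeR). NUDT24, a Nudix hydrolase, was at 33.4 and 48.4 CPM in nup136 and at 1.76 and 2.82 CPM in WT (log2 fold change 4.17, SE 0.41, adjusted p = 0.00017, edgeR), and its level in nup50c and nup82 lay between 1.24 and 3.19 CPM, so that the nup136 libraries stood above the 6 libraries of the 3 other genotypes. PCR1, a plasma membrane protein of cadmium resistance, was at 5.11 and 4.03 CPM in nup136 against 0.0452 and 0.266 CPM in WT, but at 4.46 and 3.98 CPM in nup50c and 4.16 and 1.39 CPM in nup82, against which it was not called (adjusted p = 0.917 and 0.44, edgeR).

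The calls of several of the genes highest by fold rested on few counts in WT. NATA1, an acetyltransferase acting on ornithine, was at 15.7 and 18 CPM in nup136 and had no count in WT, which makes it at least 228-fold higher against a floor of 3 counts per WT library. AOX1D, an alternative oxidase of mitochondria, was at 1.96 and 3.00 CPM in nup136 with no count in WT and was at least 33.6-fold higher by the same floor. PR1, the best known marker of salicylic acid defence, was at 25.8 and 15.0 CPM in nup136 and at 0.362 and 0.0532 CPM in WT. All 3 were called (adjusted p = 0.0321, 0.0404 and 0.0389, edgeR), and each call was lost whichever of the 4 libraries was left out, with adjusted p from 0.0649 to 0.195. The libraries of nup50c and of nup82 differed widely in PR1, which was at 24.4 and 3.48 CPM in nup50c and at 14.7 and 2.11 CPM in nup82. Against those genotypes PR1 was not called in nup136 (adjusted p = 0.786 and 0.513, edgeR). NATA1 was at 6.58 and 0.381 CPM in nup50c and at 3.89 and 0.192 CPM in nup82. AOX1D was at 2.59 and 1.33 CPM in nup50c and at 1.59 and 0.0958 CPM in nup82. Neither NATA1 nor AOX1D was called in nup136 against these genotypes (adjusted p from 0.173 to 0.879, edgeR).

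The terpene synthase TPS4 was at 13.7 and 13.8 CPM in nup136 and at 0.452 and 0.0532 CPM in WT, and ELI3-2, annotated as a cinnamyl alcohol dehydrogenase, at 5.73 and 5.67 CPM in nup136 and at 0.226 and 0 CPM in WT. Both calls were lost without either WT library (adjusted p from 0.0616 to 0.0999 for TPS4 and at most 0.0865 for ELI3-2). WAK3, a wall-associated kinase, was at 5.89 and 2.95 CPM in nup136 and at 0.0452 and 0.160 CPM in WT, a call lost without WT 1 (adjusted p = 0.0729). Against nup50c none of TPS4, ELI3-2 and WAK3 was called (adjusted p = 0.17, 0.375 and 0.535, edgeR). Against nup82 ELI3-2 alone was (adjusted p = 0.0419, edgeR). Below AT5G37990, the deepest falls included those of the cytochrome P450 genes CYP76G1 (0.184 and 0.264 CPM in nup136, 3.75 and 2.77 CPM in WT), AT5G08250 (0.368 and 0.316 CPM in nup136, 3.17 and 4.52 CPM in WT) and CYP93D1 (0.460 and 0.105 CPM in nup136, 2.92 and 2.55 CPM in WT). The MYB-related gene RL1 was at 0.506 and 0.474 CPM in nup136 and at 2.69 and 2.77 CPM in WT. In these 4 genes every nup136 library was below every WT library, and their calls held without any 1 library.

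Many genes of the jasmonate pathway were higher in nup136. Jasmonate is made from plastid lipids by lipoxygenases (LOX), allene oxide synthase (AOS) and allene oxide cyclases (AOC), then by the reductase OPR3 and by beta-oxidation in peroxisomes; its amino acid conjugate releases MYC transcription factors from the JAZ repressors, and JAZ genes are themselves MYC targets. In nup136, 10 of 17 tested synthesis genes (58.8%) and 7 of 11 turnover genes (63.6%) were higher than in WT. So were 9 of 19 signalling and JAZ genes (47.4%) and 11 of 13 outputs of the MYC branch (84.6%). None of these 60 genes was lower. Over all tested genes 6.56% were higher and 7.83% lower. The medians of the 4 lists were 0.56, 1.4, 0.57 and 2.3 on the log2 scale, against 0.0046 over all tested genes. The factor MYC2, a member of the signalling list, was not among the genes tested, and MYC3 and MYC4 were not called (log2 fold changes 0.11 and 0.13).

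AOC1 was at 175 and 186 CPM in nup136 and at 27.8 and 15.7 CPM in WT (log2 fold change 3.05, SE 0.3, adjusted p = 0.000219, edgeR). OPR3 was at 398 and 378 CPM in nup136, against 75.7 and 53.9 CPM in WT (2.58, SE 0.18, adjusted p = 3.43e-06). LOX3 was at 74.4 and 64.1 CPM in nup136 and at 13.8 and 8.96 CPM in WT. In these 3 genes both nup136 libraries were several times above both WT libraries. LOX2, a lipoxygenase of the leaf, was at 1210 and 1460 CPM in nup136 and at 408 and 385 CPM in WT (1.75, SE 0.09, adjusted p = 4.81e-13). AOC1, AOC2 and AOC3 are adjacent on chromosome 3 and similar in sequence, so the division of reads among them is uncertain.

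Several genes that consume or inactivate the hormone were higher too. JMT, which methylates jasmonate, was at 6.35 and 7.38 CPM in nup136 and at 1.13 and 1.57 CPM in WT. JOX2, an oxidase that inactivates jasmonate, was at 74.9 and 67.0 CPM in nup136 and at 22.2 and 13.2 CPM in WT, and ILL6, an amidohydrolase that cleaves conjugates, was at 42.1 and 44.9 CPM in nup136 and at 13.5 and 9.33 CPM in WT. In all 3 the groups were well apart (log2 fold changes 2.35, 2.00 and 1.93; SE 0.38, 0.22 and 0.15; adjusted p at most 0.000123, edgeR). The turnover count of 7 was 4 without nup136 1 or WT 2, since JOX4, CYP94C1 and ST2A were then not called (adjusted p from 0.0522 to 0.297).

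Of the repressors, JAZ9 was at 243 and 230 CPM in nup136 and at 66.2 and 43.1 CPM in WT (2.11, SE 0.24, adjusted p = 0.000567, edgeR), and JAZ7 was at 10.9 and 8.25 CPM in nup136 and at 2.83 and 1.60 CPM in WT (2.1, SE 0.3, adjusted p = 3.8e-05). The outputs included VSP2, a vegetative storage protein, at 277 and 387 CPM in nup136 and 66.6 and 68.1 CPM in WT, a call lost without WT 1 (adjusted p = 0.0516). CLH1, a chlorophyllase induced by jasmonate, was at 137 and 163 CPM in nup136 and at 30.9 and 19.1 CPM in WT, and CORI3, a coronatine-induced lyase, at 96.2 and 114 CPM in nup136 and 34.4 and 33.1 CPM in WT. The WT libraries lay closer together for CORI3 than for CLH1, and the adjusted p was 2.86e-12 for CORI3 and 0.000992 for CLH1. The count of 11 outputs was 10 without either nup136 library, 7 without WT 1 and 8 without WT 2.

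The branch that answers to jasmonate together with ethylene did not move with the MYC branch. Of its 10 tested genes, ORA59, its transcription factor, was higher, at 16.5 and 14.3 CPM in nup136 and 7.53 and 3.94 CPM in WT. The defensin PDF1.3 was lower, at 0.506 and 0.316 CPM in nup136 and 3.69 and 1.65 CPM in WT, a call lost without either nup136 library or WT 1 (adjusted p from 0.105 to 0.208). The list's median was -0.24.

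**Figure D3:**
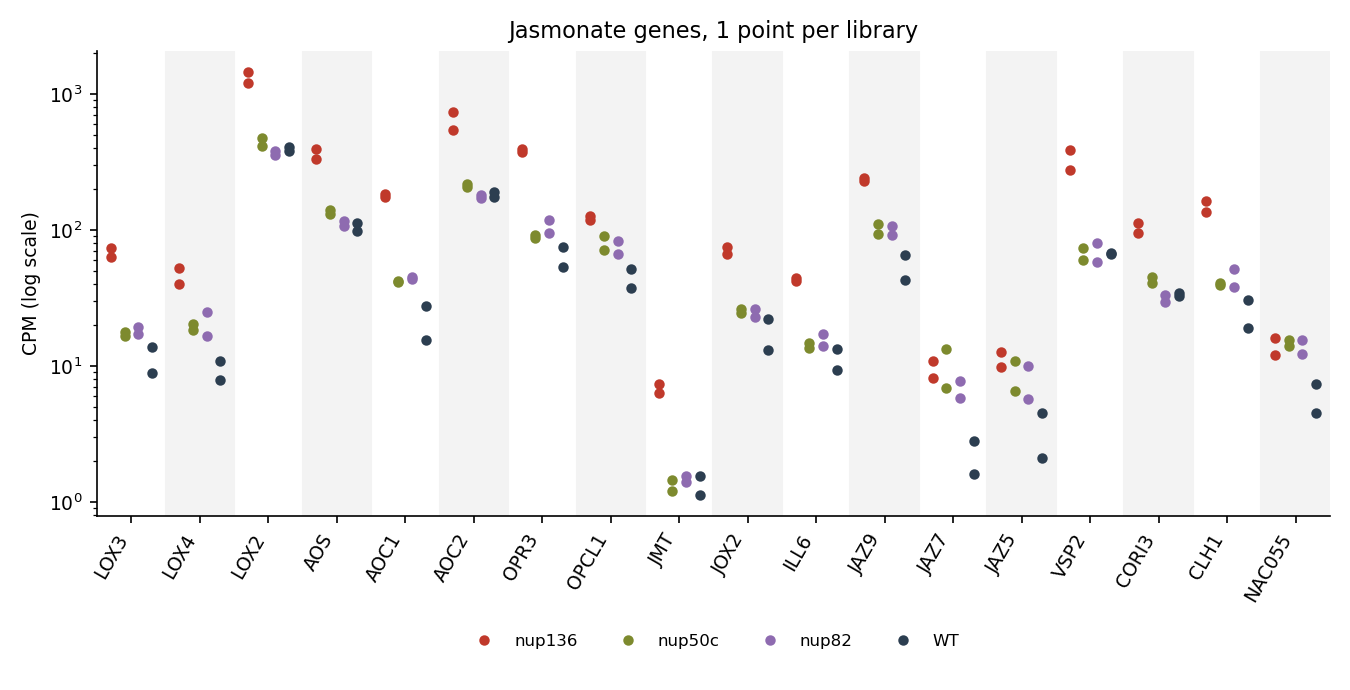
CPM (log scale) of 18 jasmonate genes in nup136, nup50c, nup82 and WT, 1 point per library; synthesis genes are on the left, then turnover genes, JAZ genes and outputs. For LOX2, AOS, AOC2, JMT and CORI3 the nup50c and nup82 points lie close to WT, whereas for NAC055 they lie among those of nup136 and for JAZ7 and JAZ5 above WT.

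How far the jasmonate genes stood out depended on the genotype beside which nup136 was set. Against nup50c, 10 synthesis, 4 turnover, 4 signalling and 7 output genes were higher in nup136, where 7.54% of all genes were, and 2 synthesis genes and 1 signalling gene were lower, where 8.83% were. Against nup82 the higher genes numbered 10, 5, 2 and 8, where 5.89% of all genes were higher, and 1 synthesis gene was lower, where 8.08% were. These comparisons share the nup136 libraries with the one against WT and are no repeat of it. JAZ7 was at 13.3 and 6.91 CPM in nup50c, overlapping the nup136 libraries, and at 5.89 and 7.83 CPM in nup82, just below them, and was not called against either (adjusted p = 0.886 and 0.282). JAZ1, at 41.4 and 39.8 CPM in nup136 and 29.2 and 21.7 CPM in WT, was at 52.0 and 41.5 CPM in nup50c. By contrast LOX2 was at 473 and 414 CPM in nup50c and 360 and 385 CPM in nup82, and nup136 was higher than both genotypes by 1.59 and 1.84 on the log2 scale (SE 0.09 each; adjusted p = 4.23e-12 and 2.79e-13, edgeR).

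With nup50c or nup82 already mutated, adding nup136 did not raise the jasmonate lists in the same way. In nup50c nup136 against nup50c, 4 synthesis, 0 turnover, 2 signalling and 4 output genes were higher, where 12.9% of all genes were, and 5, 2, 8 and 2 were lower, where 14.1% were. The medians of the 4 lists were 0.03, -0.26, -0.57 and 0.78. In nup82 nup136 against nup82, 3, 1, 0 and 1 were higher, where 8.92% of all genes were, and 1, 2, 5 and 2 were lower, where 12.6% were, with medians of 0.12, 0.20, -0.32 and -0.72. The test of the difference, which shares the nup136 and WT libraries with the comparison above, called a smaller effect in nup50c than in WT for 9 synthesis, 7 turnover, 9 signalling and 5 output genes, where 2.72% of all genes were called in that direction, 2.45% in the other and 5.17% in all. In nup82 it called a smaller effect for 7, 6, 9 and 9 genes of the 4 lists, where 5.33% of all genes were, against 3.44% in the other direction. No gene of these lists had a larger effect in either.

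MYC factors bind the G-box, CACGTG. Promoters were read as the 250 bases before the annotated gene start in RefSeq's TAIR10.1 assembly, whose gene coordinates equal those of the files for 32520 of 32548 matched genes. The motif reads the same on both strands. It was in 7.36% of the promoters of 21522 tested protein-coding genes, in 10.3% of those of genes higher in nup136 and in 6.38% of those of genes lower. Of the 37 jasmonate genes called higher, 7 had it, which is 18.9%. Of all 60 tested genes of the 4 jasmonate lists, called or not, 10 had it, which is 16.7%. AOC1, OPR3, LOX2 and LOX3 did not have it. ACX1 of the synthesis list, called higher by 0.38 on the log2 scale, had it, as did JAZ8 and JAZ13, which were not called (1.53 and 0.9). In the turnover and output lists JOX1, not called (-1.14), MBP1 (1.68) and NAC019 (2.42) had it. Among the holders, the promoters of AOS and of 3 JAZ genes, all called higher, are shown. They are in lower case with the motif in capitals, on the strand of the gene.
AOS, chr5:17099596-17099845, minus strand: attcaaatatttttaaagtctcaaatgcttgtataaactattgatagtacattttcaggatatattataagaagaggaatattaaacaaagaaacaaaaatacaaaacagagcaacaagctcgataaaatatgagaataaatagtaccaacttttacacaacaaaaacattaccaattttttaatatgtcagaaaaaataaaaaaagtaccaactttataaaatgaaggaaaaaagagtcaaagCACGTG
JAZ2, chr1:28150447-28150696, minus strand: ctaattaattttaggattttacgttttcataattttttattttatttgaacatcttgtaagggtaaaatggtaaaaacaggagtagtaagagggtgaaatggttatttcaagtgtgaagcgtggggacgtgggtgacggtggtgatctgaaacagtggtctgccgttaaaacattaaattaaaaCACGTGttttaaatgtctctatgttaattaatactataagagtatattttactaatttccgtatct
JAZ3, chr3:6119457-6119706, plus strand: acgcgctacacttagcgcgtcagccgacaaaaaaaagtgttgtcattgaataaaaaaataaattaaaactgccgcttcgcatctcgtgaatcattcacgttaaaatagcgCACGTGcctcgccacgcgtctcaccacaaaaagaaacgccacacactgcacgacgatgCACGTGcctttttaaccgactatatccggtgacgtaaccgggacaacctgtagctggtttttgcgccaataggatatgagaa
JAZ7, chr2:14572780-14573029, plus strand: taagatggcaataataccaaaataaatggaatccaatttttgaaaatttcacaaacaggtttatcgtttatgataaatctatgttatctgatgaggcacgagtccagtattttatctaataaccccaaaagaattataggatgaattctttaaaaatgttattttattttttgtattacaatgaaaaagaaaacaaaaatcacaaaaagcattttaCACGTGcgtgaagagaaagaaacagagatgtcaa
The motif began 6 bases before the gene start in AOS, 66 in JAZ2 and 34 in JAZ7, and JAZ3 held 2 copies. AOS itself was at 333 and 394 CPM in nup136 and at 113 and 98.4 CPM in WT. JAZ2 was at 61.7 and 54.6 CPM in nup136 and at 31.6 and 25.8 CPM in WT. JAZ3 was at 31.2 and 25.5 CPM in nup136 and at 19.5 and 18.7 CPM in WT. These 3 genes, picked for their motif after their values were seen, differed in size of change (log2 fold changes 1.78, 1.02 and 0.57; adjusted p = 2.25e-12, 0.00238 and 0.00132, edgeR), and JAZ3, with 2 copies, had the smallest.

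Of the salicylic acid defence genes that were called, all but WRKY70 were higher. This hormone acts through NPR1 and TGA factors against pathogens that feed on living tissue, and often opposes jasmonate. Of 31 tested genes 11 (35.5%) were higher and 1 (3.23%) lower, with a median of 0.51, where 6.56% and 7.83% of all genes were. With nup136 added to nup50c, nup82 and nup50c nup82, 6, 1 and 4 were higher, where 12.9%, 8.92% and 22.3% of all genes were. In these pairs 10, 12 and 8 were lower, where 14.1%, 12.6% and 24.0% were. The test of the difference called a lower effect than in WT for 8 genes in nup50c and 12 in nup82. A higher effect was called for 2 and 0. GRXC9, a glutaredoxin induced by salicylic acid, was at 4.81 and 5.51 CPM in nup136 and at 0.633 and 0.372 CPM in WT (log2 fold change 3.34, SE 0.47, adjusted p = 1.56e-05, edgeR). PBS3, which makes the glutamate conjugate from which salicylic acid is released, was at 5.82 and 4.90 CPM in nup136 and at 0.588 and 0.851 CPM in WT (2.90, SE 0.41, adjusted p = 2.1e-05). In both, every nup136 library was several times every WT library. WRKY70, a transcription factor of this pathway, went the other way, at 26.5 and 30.4 CPM in nup136 and 57.3 and 60.3 CPM in WT (-1.05, SE 0.21, adjusted p = 0.00667), a call lost without nup136 1 (adjusted p = 0.0642). The count of 11 was 7 without nup136 1 and 8 to 10 without any other of the 4 libraries.

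WRKY33, the factor that drives synthesis of the phytoalexin camalexin, was at 32.6 and 34.2 CPM in nup136 and at 80.9 and 103 CPM in WT (-1.47, SE 0.2, adjusted p = 0.000596, edgeR). It was the only lower gene of 7 in the camalexin and indole aldoxime list, while 4 were higher. Among those, CYP79B2 was at 169 and 186 CPM in nup136 and 99.9 and 74.4 CPM in WT, and CYP79B3 at 171 and 200 CPM in nup136 and 78.6 and 55.6 CPM in WT; both convert tryptophan to the aldoxime from which camalexin and indole glucosinolates are made. GSTF6, a glutathione S-transferase of the pathway, and CYP71A12 were the other 2, and both calls were lost without WT 2, GSTF6 also without nup136 2 or WT 1 and CYP71A12 without nup136 1 (adjusted p from 0.0538 to 0.0715), so that 2 or 3 of the 4 were called with any 1 library left out. In indole glucosinolate synthesis 5 of 10 genes were higher (3 without WT 2), among them GGP1, at 358 and 354 CPM in nup136 and 218 and 197 CPM in WT, and CYP83B1, at 317 and 292 CPM in nup136 and 192 and 166 CPM in WT. CYP81F2, which modifies the finished compound, was lower, at 12.3 and 6.93 CPM in nup136 and 18.7 and 23.5 CPM in WT.

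Aliphatic glucosinolate genes showed a clear difference between backgrounds. In nup136 against WT 4 of 18 were higher and 1 lower, with a median of 0.14; SUR1, the lyase shared with the indole branch, was at 133 and 130 CPM in nup136 and at 92.4 and 81.7 CPM in WT. CYP79F1, which starts the aliphatic branch, was the lower gene, at 92.1 and 80.9 CPM in nup136 and 112 and 124 CPM in WT. In nup50c nup136 against nup50c, 14 of the 18 were lower, and in nup82 nup136 against nup82, 16 were, where 14.1% and 12.6% of all genes were lower. The difference in effect was called for 13 genes in nup50c and 15 in nup82, all toward a lower effect than in WT. Of all genes 2.72% and 5.33% were called in that direction.

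Genes of immune receptors with a nucleotide-binding site and leucine-rich repeats, which detect pathogen effectors, included several lower members. Of 110 tested genes whose description names NBS-LRR, 21 (19.1%) were lower and none was higher, with a median of -0.18, where 7.83% of all genes were lower. RPP4, which gives resistance to downy mildew, was at 88.9 and 62.2 CPM in nup136 and at 133 and 145 CPM in WT (log2 fold change -0.88, SE 0.11, adjusted p = 1.61e-05, edgeR), and its neighbour SNC1 was at 96.4 and 85.3 CPM in nup136 and at 142 and 148 CPM in WT (-0.67, SE 0.08, adjusted p = 2.11e-06). Both were singled out after their values were seen, since they lie in a run of 4 adjacent genes on chromosome 4 (chr4:9482429-9505972) that were all called lower; the members of this cluster are similar in sequence, and the division of reads among them is uncertain. Against nup50c 25 and against nup82 32 of the family were lower in nup136, where 8.83% and 8.08% of all genes were. The count of 21 was 24 without nup136 1, 12 without nup136 2, 12 without WT 1 and 14 without WT 2. With nup136 added to nup50c, nup82 and nup50c nup82, 22, 29 and 45 of the family were lower, where 14.1%, 12.6% and 24.0% of all genes were, and 8, 5 and 11 were higher; 12 were lower in all 4 backgrounds.

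Other families tied to defence held both higher and lower genes. Of 39 glutathione S-transferases of the tau and phi classes 10 were higher and 4 lower. Of 63 WRKY factors 6 (9.52%) were higher and 7 (11.1%) lower, and of 189 cytochrome P450 genes 23 (12.2%) were higher and 17 (8.99%) lower, shares not far from the 6.56% and 7.83% of all genes. Without any 1 library the higher counts were 5 to 8, 3 to 4 and 14 to 17. GSTU5, GSTU4 and GSTU3, adjacent on chromosome 2, were all higher, GSTU5 being at 279 and 352 CPM in nup136 and 95.2 and 80.3 CPM in WT.

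Of 17 touch and rapid stress genes, which answer within minutes to handling, 6 (35.3%) were lower and 1 (5.88%) higher, with a median of -0.71. Over all genes 7.83% were lower and 6.56% higher. The higher one was WRKY18, with a log2 fold change of 0.9. TCH4, a xyloglucan hydrolase, was at 194 and 186 CPM in nup136 and at 469 and 535 CPM in WT (log2 fold change -1.4, SE 0.13, adjusted p = 1.88e-06, edgeR). SZF1, a zinc finger gene of salt stress, was at 63.2 and 61.9 CPM in nup136 and at 159 and 166 CPM in WT (-1.38, SE 0.14, adjusted p = 1.33e-05), and EXO, a cell wall protein of growth, at 129 and 146 CPM in nup136 and 326 and 348 CPM in WT (-1.29, SE 0.11, adjusted p = 7.67e-08). The nup136 libraries of these 3 genes were also below every library of nup50c and nup82. ERF104, an ethylene response factor, was at 15.2 and 30.8 CPM in nup136 and 77.4 and 84.3 CPM in WT, a call lost without nup136 1, WT 1 or WT 2 (adjusted p from 0.0664 to 0.0857). The count of 6 was 4 to 7 with any 1 library left out.

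Some nuclear transport genes were higher in nup136 and none was lower. Ran is the GTPase whose gradient across the envelope gives transport its direction. RanBP1 proteins bind it, NTF2 carries it back into the nucleus, and XPO1 exports proteins with a leucine-rich signal. Of 25 tested genes of the Ran cycle and the transport receptors 7 (28.0%) were higher and none was lower, with a median of 0.09. The shares over all genes were 6.56% higher and 7.83% lower. RAN1 was at 495 and 478 CPM in nup136 and at 266 and 280 CPM in WT (log2 fold change 0.83, SE 0.08, adjusted p = 3.71e-08, edgeR). XPO1B was at 46.8 and 36.4 CPM in nup136 and at 26.5 and 26.9 CPM in WT (0.64, SE 0.1, adjusted p = 7.53e-05), and RAN2 at 336 and 332 CPM in nup136 and 215 and 256 CPM in WT (0.50, SE 0.08, adjusted p = 0.000113). RAN3, RANBP1A, RANBP1C and NTF2B rose by 0.22 to 0.33, and their calls were lost without nup136 2, WT 1 or WT 2 (adjusted p from 0.0546 to 0.682), that of RAN3 also without nup136 1 (0.0517). The list then had 7, 3, 3 and 4 higher genes without nup136 1, nup136 2, WT 1 and WT 2. RAN1, RAN2 and RAN3 are near-identical, and the division of reads among them is uncertain. In nup50c nup136, nup82 nup136 and the triple mutant, each against its counterpart, 11, 11 and 17 of the 25 genes were higher and none lower, and all 7 were among them each time; 12.9%, 8.92% and 22.3% of all genes were higher in these pairs.

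mRNA export genes had 4 of 23 members higher and 1 lower. UAP56B, a helicase that loads export factors on mRNA, was at 170 and 174 CPM in nup136 and at 127 and 138 CPM in WT (0.38, SE 0.07, adjusted p = 0.000849, edgeR). Its near-identical copy UAP56A, and ALY4 and MOS11, which are export adaptors, were also called, but each was lost with at least 1 library left out (adjusted p from 0.05 to 0.248), which left 2 calls without WT 1 or WT 2 and 3 without nup136 1 or nup136 2. CEN2, a centrin of the export complex TREX-2, was at 11.0 and 12.9 CPM in nup136 and at 19.6 and 15.2 CPM in WT, a call lost without nup136 1 or WT 1 (adjusted p = 0.148 and 0.291). SR45A, at 55.9 and 75.0 CPM in nup136 and 37.1 and 41.3 CPM in WT, led the SR splicing factors, which bind exonic RNA and guide the spliceosome (0.74, SE 0.13, adjusted p = 0.000594). Of these 20 factors 5 (25.0%) were higher and none lower, with a median of 0.18. That count was 5, 3, 2 and 2 without nup136 1, nup136 2, WT 1 and WT 2.

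**Figure D4:**
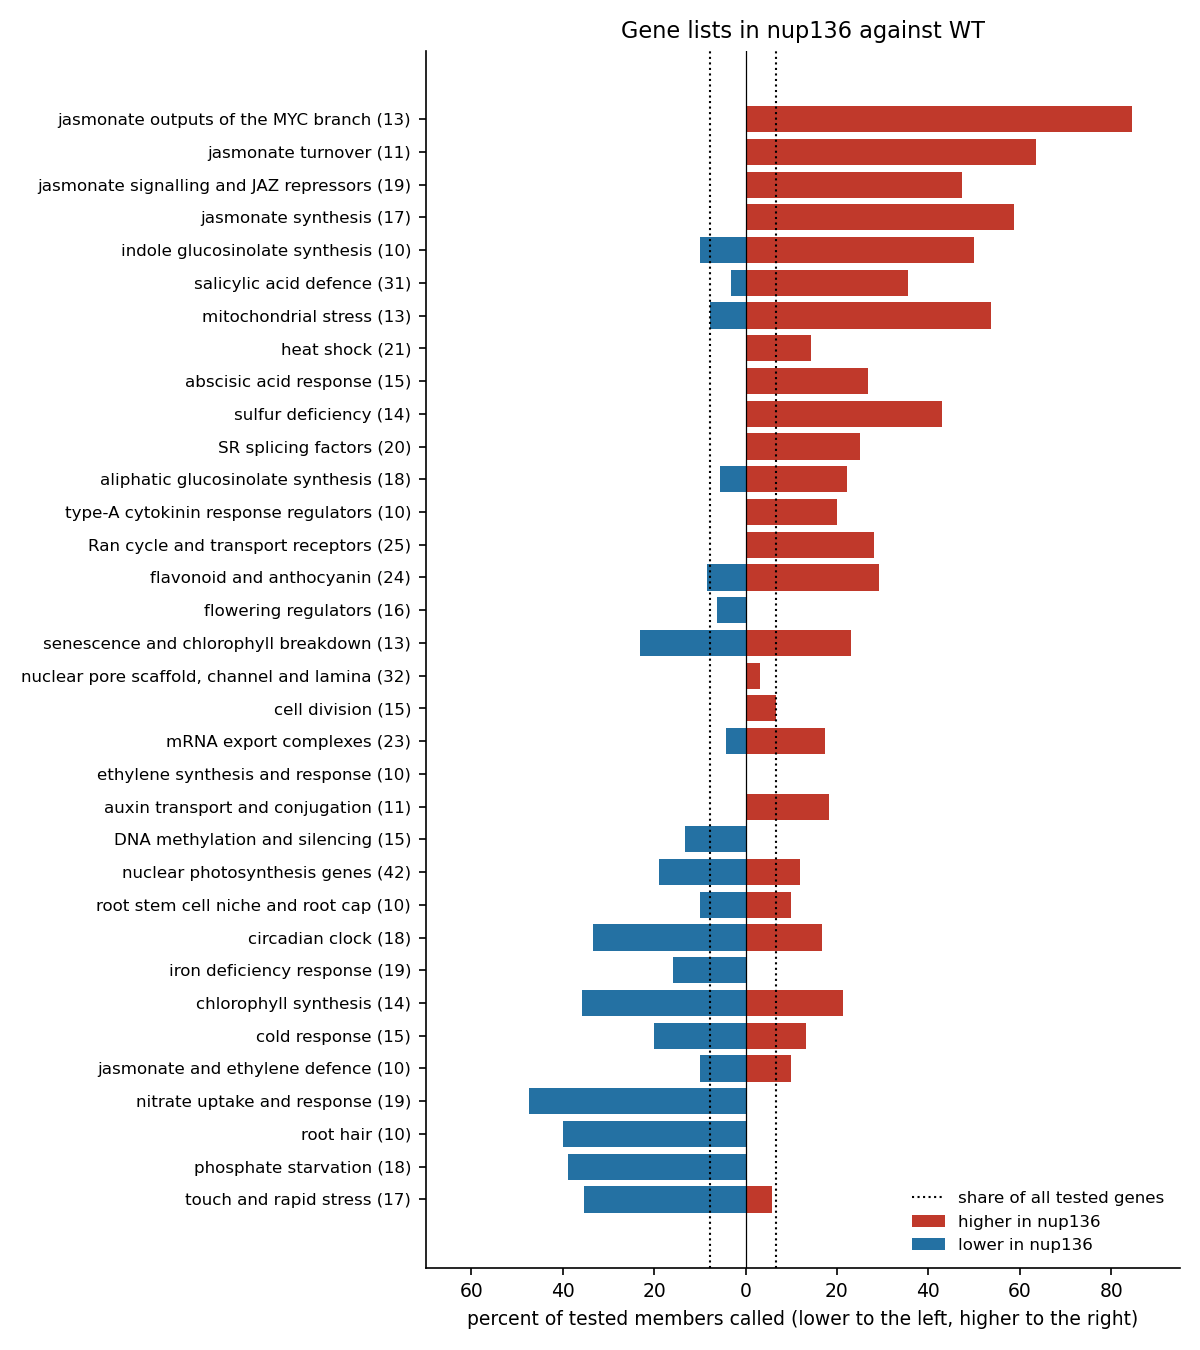
Percent of the tested members of each written gene list with at least 10 tested genes that were higher (red, right) or lower (blue, left) in nup136 against WT, ordered by the list's median log2 fold change, highest at the top; the number of tested members is in brackets. Dotted lines mark the shares of all tested genes, 6.56% higher and 7.83% lower. The 4 jasmonate lists lie at the top and the touch, phosphate, root hair and nitrate lists at the bottom.

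In nup136 against WT the called nitrate and phosphate genes were all lower, and the called sulfur genes all higher. Over all genes 7.83% were lower and 6.56% higher. In the nitrate list, which holds transporters, reductases and the early nitrate response, 9 of 19 (47.4%) were lower and none higher (median -0.31). BT2, a scaffold protein of nitrogen use, was at 166 and 152 CPM in nup136 and at 374 and 336 CPM in WT (log2 fold change -1.16, SE 0.09, adjusted p = 1.33e-09, edgeR). The nitrate reductase NIA1 was at 221 and 217 CPM in nup136 and at 369 and 325 CPM in WT (-0.66, SE 0.1, adjusted p = 9.16e-05). HRS1, a repressor linking nitrate and phosphate signals, was at 26.2 and 22.9 CPM in nup136 and 44.2 and 35.1 CPM in WT (-0.69, SE 0.11, adjusted p = 0.000103). The count of 9 was 6 to 8 with any 1 library left out.

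In the phosphate starvation list 7 of 18 (38.9%) were lower, where 7.83% of all genes were, and none was higher (median -0.47). Most of these remodel membrane lipids so that phosphate is freed: the galactolipid synthase MGD3 was at 3.57 and 2.93 CPM in nup136 and at 7.03 and 6.43 CPM in WT, and the phosphodiesterase GDPD1 at 9.69 and 8.49 CPM in nup136 and 16.5 and 18.1 CPM in WT. MGD2, SQD1, SQD2 and PLDZ2 belong to the same process, and PHT1;1 is a phosphate transporter. PHT1;1 kept its call whichever library was left out, at 65.5 and 67.2 CPM in nup136 and 92.2 and 96.5 CPM in WT (-0.51, SE 0.1, adjusted p = 0.000608, edgeR), which was the case for none of the other 6 (adjusted p from 0.0513 to 0.227 where lost), and the count was 4, 2, 4 and 3 without nup136 1, nup136 2, WT 1 and WT 2. SPX1 and IPS1, early markers of phosphate deficiency, were not called (adjusted p = 0.258 and 0.41). Against nup50c and against nup82, 13 members were lower each time, where 8.83% and 8.08% of all genes were. The libraries of both these genotypes were all above those of WT for MGD3 and GDPD1.

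Of 14 sulfur deficiency genes 6 (42.9%) were higher, where 6.56% of all genes were, and none was lower (median 0.21). Against nup50c 2 were higher and 2 lower in nup136, and against nup82 2 and 1. With nup136 added to nup50c, nup82 and nup50c nup82, 3, 0 and 1 were higher, where 12.9%, 8.92% and 22.3% of all genes were. In these pairs 4, 10 and 12 were lower, where 14.1%, 12.6% and 24.0% were. SDI1, a repressor of glucosinolate synthesis under low sulfur, was at 29.7 and 27.6 CPM in nup136 and at 13.2 and 15.2 CPM in WT (1.02, SE 0.16, adjusted p = 0.000105, edgeR), but at 24.6 and 33.9 CPM in nup50c and 20.3 and 27.9 CPM in nup82. BGLU28, a glucosidase that acts on glucosinolates, was at 8.38 and 8.22 CPM in nup136 and at 3.53 and 3.72 CPM in WT. The count of 6 was 5, 2, 3 and 3 without nup136 1, nup136 2, WT 1 and WT 2.

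Genes for the same enzyme step moved in opposite directions. The phosphoethanolamine N-methyltransferases make phosphocholine for membrane lipids. XPL1 was at 87.9 and 82.8 CPM in nup136 and at 256 and 290 CPM in WT (log2 fold change -1.68, SE 0.09, adjusted p = 9.86e-13, edgeR). NMT3 was at 241 and 247 CPM in nup136 and at 96.4 and 99.9 CPM in WT (1.31, SE 0.08, adjusted p = 5.33e-11), and NMT2 was at 286 and 283 CPM in nup136 and 289 and 286 CPM in WT. XPL1 was at 138 and 125 CPM in nup50c and 119 and 123 CPM in nup82, between nup136 and WT. NMT3 was higher still in those genotypes, at 326 and 325 CPM in nup50c and 375 and 362 CPM in nup82, so that nup136 was below both (log2 fold change -0.42 against nup50c and -0.60 against nup82, SE 0.08 each; adjusted p = 0.000853 and 1.35e-05, edgeR).

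Of 24 tested genes of flavonoid and anthocyanin synthesis 7 (29.2%) were higher and 2 (8.33%) lower, with a median of 0.08. Of all genes 6.56% were higher and 7.83% lower. Among the higher ones, DFR, the reductase that opens the branch, was at 59.6 and 82.0 CPM in nup136 and at 21.3 and 22.1 CPM in WT (log2 fold change 1.71, SE 0.12, adjusted p = 7.6e-10, edgeR). TT19, which carries the pigment to the vacuole, was at 23.5 and 38 CPM in nup136 and at 9.27 and 8.72 CPM in WT (1.77, SE 0.22, adjusted p = 0.000127). LDOX was at 31.7 and 49.9 CPM in nup136 and at 14.0 and 14.7 CPM in WT (1.5, SE 0.17, adjusted p = 2.75e-05). In all 3, nup136 2 was above nup136 1, and both were above every library of WT, nup50c and nup82. The transcription factor PAP1 of this branch was at 2.26 and 3.56 CPM in nup136 and 0.543 and 0.638 CPM in WT, with nup50c and nup82 between 1.36 and 2.25 CPM. FLS1, which turns the precursor to flavonols in place of anthocyanin, was lower, as was the early enzyme TT4. FLS1 was at 55.5 and 50.0 CPM in nup136 and 86.8 and 84.4 CPM in WT (-0.70, SE 0.08, adjusted p = 2.02e-06), and the call of TT4 was lost without nup136 1, nup136 2 or WT 1 (adjusted p from 0.0582 to 0.316).

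Of 42 nuclear photosynthesis genes 5 (11.9%) were higher, all of them LHCB genes for light-harvesting proteins, and 8 (19.0%) were lower. The lower ones were RBCS1A, RBCS1B, RBCS2B, RBCS3B, LHCA1, PSAF, PSAH1 and PETC. Of all genes 6.56% were higher and 7.83% lower. LHCB1.4 was at 1650 and 1680 CPM in nup136 and at 967 and 1150 CPM in WT (0.66, SE 0.09, adjusted p = 6.3e-06, edgeR), and LHCB2.4 at 395 and 396 CPM in nup136 and 235 and 287 CPM in WT (0.60, SE 0.09, adjusted p = 2e-05). RBCS3B, a small subunit of Rubisco, was at 4150 and 4480 CPM in nup136 and at 6130 and 6620 CPM in WT (-0.56, SE 0.08, adjusted p = 1.77e-05), and RBCS1B at 418 and 481 CPM in nup136 and 747 and 624 CPM in WT (-0.61, SE 0.09, adjusted p = 1.95e-05). Both LHCB and RBCS genes are families of near-identical copies, for which the division of reads is uncertain. Among the largest falls in mean CPM outside the list, CA1, a carbonic anhydrase, was at 1260 and 1410 CPM in nup136 and 2180 and 2150 CPM in WT (-0.69, SE 0.08, adjusted p = 1.37e-06), and the transketolase AT3G60750 at 1130 and 1120 CPM in nup136 and 1720 and 1630 CPM in WT (-0.57, SE 0.07, adjusted p = 3.15e-06). The list's counts were 3 to 5 higher and 5 to 8 lower with any 1 library left out.

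In chlorophyll synthesis HEMA1, the regulated entry enzyme, was higher, at 475 and 441 CPM in nup136 and 304 and 322 CPM in WT (0.55, SE 0.08, adjusted p = 1.28e-05, edgeR). CHLG, which attaches the phytol tail at the end, was lower, at 93.7 and 93.6 CPM in nup136 and 131 and 137 CPM in WT (-0.52, SE 0.07, adjusted p = 9.75e-06). The list had 3 higher and 5 lower of 14, and 1 to 2 higher and 1 to 4 lower with any 1 library left out. None of 95 tested plastid genome transcripts was higher and 5 (5.26%) were lower, below the share of all genes, with a median of -0.32, and 9, 0, 1 and 4 were lower without nup136 1, nup136 2, WT 1 and WT 2; the libraries were made from mRNA, and such transcripts mostly lack the tails by which mRNA is usually selected, so their level depends on the selection.

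Clock genes split: RVE8, PRR9 and LNK2 were higher, and TOC1, GI, ELF3, ELF4, FKF1 and CHE were lower. The higher and lower ones were 16.7% and 33.3% of the 18 tested, where 6.56% and 7.83% of all genes were. TOC1 was at 136 and 126 CPM in nup136 and at 186 and 187 CPM in WT (-0.51, SE 0.09, adjusted p = 0.000249, edgeR), and GI at 94.1 and 71.9 CPM in nup136 and 116 and 111 CPM in WT (-0.45, SE 0.09, adjusted p = 0.00135). GI lost its call without nup136 2 (adjusted p = 0.0725), and TOC1 kept it whichever library was left out. Of 18 clock genes 6 were lower and 3 higher, and with any 1 library left out 2 to 5 were lower and 0 to 3 higher.

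The called genes of the root hair and Casparian strip lists were all lower, where 7.83% of all genes were lower. Of 10 genes of the root stem cell niche and root cap 1 was higher and 1 lower, WOX5 and SCR, and neither was called with any 1 library left out (adjusted p from 0.0677 to 0.171, edgeR). Of 10 root hair genes 4 were lower and none higher (median -0.44), with LRX1, a cell wall protein of the hair, at 7.73 and 7.93 CPM in nup136 and 18 and 12.7 CPM in WT (-0.95, SE 0.19, adjusted p = 0.000787, edgeR). That count was 5, 1, 1 and 3 without nup136 1, nup136 2, WT 1 and WT 2. Of 9 genes of the Casparian strip, the seal of the endodermis, 4 were lower and none higher (median -0.71): SGN3, a receptor that surveys the seal, was at 9.42 and 7.62 CPM in nup136 and 16.8 and 16.5 CPM in WT (-0.97, SE 0.16, adjusted p = 0.000133), and CASP1, its scaffold, at 18.8 and 16.6 CPM in nup136 and 28.5 and 29.2 CPM in WT (-0.71, SE 0.12, adjusted p = 0.000248). PER64 and CASP2 were the other 2; 3 or 4 were called with any 1 library left out. MYB36, the factor that switches these genes on, was at 6.63 and 8.25 CPM in nup136 and 7.06 and 8.06 CPM in WT. With nup136 added to the other 3 backgrounds, 7 to 8 root hair genes and 5 to 7 Casparian strip genes were lower and none was higher. All 8 genes called here were lower each time. In the nup50c, nup82 and triple mutant's pairs 14.1%, 12.6% and 24.0% of all genes were lower.

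Aquaporins, channels for water that are abundant in roots, were lower in 10 of 20 cases and higher in none (median -0.25). Without nup136 2 or WT 1 the count was 4, and without nup136 1 or WT 2 it was 8. PYK10, a glucosidase of the root ER body and among the most abundant transcripts, was at 1950 and 1880 CPM in nup136 and at 2940 and 2880 CPM in WT (-0.60, SE 0.09, adjusted p = 3.1e-05, edgeR). The ER body genes of the shoot that jasmonate induces went up: TSA1 was at 69.2 and 80.0 CPM in nup136 and 32.0 and 27.5 CPM in WT (1.32, SE 0.12, adjusted p = 3.65e-08), and BGLU18 at 329 and 453 CPM in nup136 and 170 and 163 CPM in WT (1.23, SE 0.19, adjusted p = 0.00181).

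Mitochondrial stress genes, most of them targets of NAC factors released from the ER membrane, were higher in 7 of 13 cases and lower in 1. CRF6, a cytokinin response factor, was at 14.8 and 17.0 CPM in nup136 and at 7.06 and 7.26 CPM in WT (1.15, SE 0.15, adjusted p = 5.87e-06, edgeR). DIC2, a carrier of dicarboxylates, was lower, at 13.6 and 14.9 CPM in nup136 and 35.5 and 54.1 CPM in WT, a call lost without nup136 2 (adjusted p = 0.0507). The 7 became 5, 3, 4 and 4 without nup136 1, nup136 2, WT 1 and WT 2. Of 9 genes of the DNA damage list 2 were called, both higher: GMI1, of the repair of double strand breaks, at 15.7 and 14.5 CPM in nup136 and 8.30 and 8.77 CPM in WT (0.82, SE 0.16, adjusted p = 0.000601), and XRI1, whose call was lost without nup136 2, WT 1 or WT 2 (adjusted p from 0.0626 to 0.179). BRCA1 and PARP1, which the same response induces, were not called (adjusted p = 0.881 and 0.351).

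Growth genes gave a mixed picture. STM, which keeps the shoot meristem undifferentiated, was at 7.67 and 7.67 CPM in nup136 and at 2.76 and 4.07 CPM in WT (1.17, SE 0.24, adjusted p = 0.00124, edgeR), a call lost without WT 1 (adjusted p = 0.0501). Of 65 SAUR genes, small auxin-induced genes of expansion, 7 (10.8%) were higher and 1 (1.54%) lower. Of 30 xyloglucan hydrolases 3 (10.0%) were higher and 9 (30.0%) lower, where 6.56% and 7.83% of all genes were. XTH25 was among the higher ones, at 5.96 and 5.69 CPM in nup136 and 0.656 and 0.744 CPM in WT (3.05, SE 0.43, adjusted p = 1.63e-05). The SAUR count was 4 to 6 and the lower XTH count 4 to 9 with any 1 library left out. Of 15 cell division genes CYCB1;1 alone was called, higher by 0.45, and was lost without nup136 2 or WT 1 (adjusted p = 0.244 and 0.203).

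The nup136 mutation was also present in 3 pairs of genotypes that share no library with this comparison. Of the 1471 genes higher in nup136 against WT, 780 (53.0%) were higher and 88 (5.98%) lower in nup50c nup136 against nup50c. These 780 were 27.0% of the genes higher in that pair, where 12.9% of all genes were higher. In nup82 nup136 against nup82, 461 (31.3%) were higher and 153 (10.4%) lower, the 461 being 23.1% of that pair's list, where 8.92% of all genes were higher. In the triple mutant against nup50c nup82, 787 (53.5%) were higher and 253 (17.2%) lower, the 787 being 15.8% of that pair's list, where 22.3% of all genes were higher and 46.3% were called in all.

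Of the 1757 genes lower in nup136 against WT, 1099 (62.5%) were lower in the nup50c pair, 754 (42.9%) in the nup82 pair and 1159 (66.0%) in the triple mutant's pair, where 14.1%, 12.6% and 24.0% of all genes were lower; these were 34.7%, 26.7% and 21.5% of each pair's list. In all 4 comparisons 314 genes were higher (21.3% of 1471) and 525 lower (29.9% of 1757). The higher ones included all 7 transport genes named above, UAP56A, UAP56B, NUP98B, LOX2, CORI3, DFR, LDOX, TT19, CRF6 and GMI1. The lower ones included NUP136, WRKY70, PDF1.3, CYP79F1, FLS1, BT2, HRS1, PHT1;1, MGD3, TCH4, SZF1, EXO, GI, SGN3 and CASP1. Of the 37 higher jasmonate genes, LOX2 and CORI3 were the only 2 higher in all 4. With any 1 of the nup136 or WT libraries left out, the higher genes shared with each pair numbered 454 to 711, 254 to 446 and 403 to 684, and the lower ones 660 to 1012, 446 to 736 and 688 to 1030.

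Calls were spread over the genome but not evenly over gene structures. On chromosomes 1 to 5 between 5.85% and 7.06% of genes were higher and between 7.38% and 8.22% lower. Runs of at least 3 adjacent tested genes called in the same direction numbered 42, among them AOC1, AOC2 and AOC3, WAK3, WAK1 and WAK2, and CSLG3, CSLG2 and CSLG1; these are tandem copies. Among protein-coding genes with 10 or more exons in the RefSeq annotation 4.15% were higher and 10.9% lower (4314 genes, median -0.05), whereas in the classes with fewer exons 6.24% to 7.95% were higher and 6.82% to 7.72% lower. Within the 20% of genes with the highest mean CPM, 3.89% of those with 10 or more exons were higher and 21.8% lower, whereas in the other classes 10.4% to 15.8% were higher and 15.8% to 24.2% lower, the highest lower share being that of genes with 1 exon. The share of lower genes among those with 10 or more exons was 12.0% without nup136 1, 4.17% without nup136 2, 5.54% without WT 1 and 5.29% without WT 2, and 7.63% under scaling by library totals. The other classes were at 4.02% to 5.16% without nup136 2 and at 4.25% to 5.36% without WT 2, so the excess of lower genes did not hold without either of these libraries, while the share of higher genes was the smallest of the 5 classes in each of these fits.

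**Figure D5:**
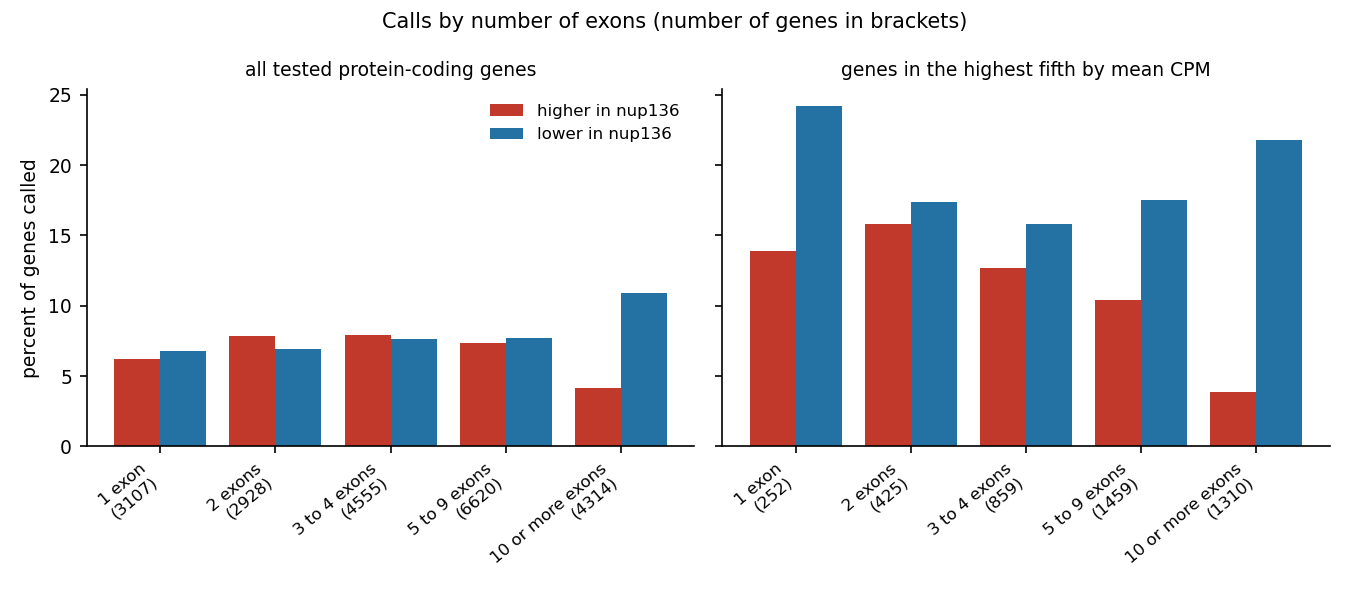
Percent of protein-coding genes called higher (red) or lower (blue) in nup136 against WT by number of exons, for all tested genes (left) and for the 20% with the highest mean CPM (right). Genes with 10 or more exons had the lowest share of higher calls in both panels, 4.15% and 3.89%.

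Of 10 motifs searched, 3 more are given here. The W-box core with its most usual last base, TTGACT on either strand, was in 33.0% of the 250-base promoters of the 176 protein-coding genes lower by at least 1 on the log2 scale, in 18% of those of the 325 genes higher by at least 1 and in 19.0% of all 21522. Over all 1741 lower protein-coding genes it was in 21.4%. The form TTGACC was in 19.9%, 7.69% and 12.2% of the same sets and in 13.0% of the 1741. TGGGCC, an element common in promoters of growth and ribosomal genes, was in 3.41%, 8.31% and 15.7%. These shares describe letters in a window and show no binding.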

How the data were processed

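Strand-specific mRNA-seq of whole Arabidopsis seedlings was deposited as tables of counts and of FPKM per gene for 16 libraries, 8 genotypes with 2 libraries each. Counts are the authors' whole-number gene counts, made with HISAT2 2.0.4 and HTSeq 0.6.1p1 on TAIR10, per the submitters' processing notes. The deposited FPKM values are the authors' own and enter no test. Counts were filtered (filterByExpr, minimum count 10), scaled by TMM and fitted over all 16 libraries with edgeR 4.0.16 (quasi-likelihood, robust, 1 coefficient per genotype, 8 residual degrees of freedom, R 4.3.3), with Benjamini-Hochberg adjustment over 22427 genes and a threshold of 0.05. The procedure was tested on simulated data for nup136 against WT with 22059 genes. Of genes changed 1.5-fold, 2-fold and 4-fold, 53.7%, 89.6% and 98.5% were recovered, and 12 of 21859 unchanged genes were called. The changed genes were drawn only from genes above a minimum mean count, and every gene had the spread fitted for its level. Recovery at low counts, and either rate in genes of wider spread, was thus not tested. The alternatives were DESeq2 1.42.0, its size factors, library totals, no filter, only the 4 libraries, a replicate block, a stricter threshold and each library left out. Named genes are the 3 mutated genes, the 10 with the largest rise and fall by log2 fold change and the 5 by CPM with a mean of at least 1 CPM and groups that do not overlap, up to 4 called members per list, any member of a list of up to 13 genes, and the 5 largest each way against nup50c and nup82; further names were picked from the results. The comparison, the gene lists and the tests were chosen with earlier results of these data known. A fold against libraries with 0 counts uses a floor of 3 counts per library, which covers counting error only. Of 32833 gene IDs, 32548 matched RefSeq's TAIR10.1 annotation.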

Additional observations from a re-analysis of the deposited data

Results flagged for a closer look

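Among the mutated genes and the genes named for the largest changes in fold or CPM, 19 are given here for which the effect of the nup136 mutation differed between backgrounds by an interaction term in the same edgeR fit, which shares the nup136 and WT libraries with the comparison of the report. Members of the gene lists with such a difference are left to the counts given in the report. Each value below is the log2 effect of nup136 in the other background minus that in WT.

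Stress genes that were higher in nup136 against WT had a lower effect of the mutation in nup50c, in nup82 or in both. In nup50c the difference was -9.19 for PR1, -7.14 for TPS4, -6.16 for ELI3-2, -6.20 for WAK3, -10.44 for PCR1 and -4.28 for FAMT. In nup82 it was -14.69 for AOX1D, -8.40 for PR1, -8.15 for TPS4, -5.71 for WAK3, -10.15 for PCR1 and -5.24 for FAMT. Where libraries had few or 0 counts, the size of these values depends on the prior count of the fit. The adjusted p was at most 0.0499 for each of them and smallest for PCR1, 2.54e-05 in nup50c and 3.61e-05 in nup82. The jasmonate gene LOX2 had a smaller rise in nup82 by -0.59 (SE 0.12, adjusted p = 0.00194, edgeR). The triple mutant's pair had no such test. In the triple mutant against nup50c nup82 the log2 fold change was 3.34 for ELI3-2 and 1.94 for WAK3, both called higher (adjusted p = 0.00659 and 0.0381, edgeR). PCR1 was called lower there (-10.25, adjusted p = 1.32e-05). AOX1D, PR1, TPS4 and FAMT were not called (adjusted p from 0.0953 to 0.581).

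Among the genes that were lower, the fall of NUP136 was smaller in nup82 by 0.65. That of AT5G37990 was smaller by 4.66 in nup50c and 7.49 in nup82, and that of AT5G08250 by 2.15 in nup50c and 2.60 in nup82. CYP76G1 had a deeper fall in nup50c, by -6.23, and CYP93D1 a deeper fall in nup82, by -3.65.

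Photosynthesis genes also differed. The difference for LHCB1.2 was -0.70 in nup50c and -0.54 in nup82, and for LHCB1.4 it was -0.68 in nup50c. In nup82 it was 0.50 for RBCS1A, 0.40 for RBCS3B, 0.42 for CA1 and 0.38 for the transketolase AT3G60750.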

How the results depend on the processing

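With a minimum absolute log2 fold change of 1 added, 333 genes were higher and 188 lower in nup136 against WT, 277 and 219 against nup50c, and 250 and 292 against nup82. The genes shared with the other backgrounds then numbered 121 higher and 92 lower for the nup50c pair, 63 and 91 for the nup82 pair, and 123 and 91 for the triple mutant's pair. With 1 library of the nup136 or WT pair left out, the counts against WT were 774 to 1253 higher and 1004 to 1564 lower, against nup50c 859 to 1623 and 1117 to 1878, and against nup82 670 to 1255 and 1118 to 1723. The shared genes were then 454 to 711 higher and 660 to 1012 lower, 254 to 446 and 446 to 736, and 403 to 684 and 688 to 1030. NUP82, not called, changed sign with library totals (0.02) and ranged from -0.14 to 0.10 with a library left out, and NUP50C, not called, from -0.00 to 0.09. DESeq2 called 1658 higher and 1967 lower genes, and the cause of the differences was not tested. Replicate numbers do not pair the samples (correlation of deviations -0.0118), and a replicate block gave 1532 higher and 1891 lower. Of 816 values of 204 named genes with a library left out, 583 kept direction and call, 230 lost the call and 3 changed sign. Of 1427 values under the other settings, 1298 kept both, 128 lost the call and 1 changed sign. With 2 libraries per genotype, small changes are often missed.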

Other observations

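Ribosomal and heat shock genes were not described above. Of 306 cytosolic ribosomal protein genes 38 (12.4%) were higher and 27 (8.82%) lower in nup136, with a median of 0.14 on the log2 scale. Of all genes 6.56% were higher and 7.83% lower. Library totals in place of TMM gave 68 higher, and the higher genes numbered 51, 7, 22 and 13 without nup136 1, nup136 2, WT 1 and WT 2, so the count depended on which libraries entered. Of 21 heat shock genes 3 were higher and none lower, and 7, 1, 1 and 1 were higher with the same libraries left out. Of 16 flowering regulators 1 was called, and of 10 genes of ethylene synthesis and response none was, by edgeR with Benjamini-Hochberg adjustment.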
